A study of Mus musculus with 2 samples.

Results

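Interferon-stimulated genes were followed through the cell types of the mouse colonic lamina propria, which lies beneath the epithelium of the gut. The set holds 37 named genes, matched by symbol, out of 31053 genes in the matrices, and all 37 had counts (84 UMIs or more in the cells kept). A UMI is a molecular identifier, so each count stands for 1 captured transcript molecule. The study used droplet single-cell RNA sequencing (10x Genomics, 3′ chemistry V3) to ask how the long noncoding RNA lncly6c bears on macrophage differentiation. It has 2 libraries, both of colonic lamina propria cells of male C57BL/6 mice aged 6 to 8 weeks kept free of specific pathogens. The library labelled lncly6c-deficient comes from mice in which CRISPR-Cas9 cuts upstream of exon E1 and downstream of exon E2 removed the whole gene 1700016P04Rik, on a C57BL/6J background, in every cell. The other library is labelled wild type. After a value, (deficient) and (wild type) name the label of its library. The labels do not say how many animals went into either library.

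Type I interferons bind the receptor chains Ifnar1 and Ifnar2 and activate a complex with Stat2 and Irf9, which binds the interferon-stimulated response element (ISRE) in the promoters of many target genes. Their products detect viral nucleic acid, degrade or sequester RNA, tag proteins with Isg15 and block virus entry and release. In the gut, macrophages and dendritic cells keep a basal level of these genes, and monocytes, the circulating precursors of gut macrophages, respond readily to interferon.

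Promoter stretches of 6 members are shown as examples of the ISRE core, from genes that were lower in the deficient-labelled library in at least 2 compared classes (Ifit1, Ifit3, Isg15 and Rsad2) or higher in its macrophage-gated cells (Oas1a and Bst2). The core was searched as 2 copies of GAAA with 2 bases of any kind between them, on both strands, from 250 bases before to 50 bases after the annotated start (RefSeq, GRCm38.p6). The capitals mark the core, which reads as 2 copies of TTTC where it lies on the other strand, and neighbouring copies may overlap. Ifit1 (chr19:34640770-34640828, plus strand) and Ifit3 (chr19:34583358-34583431, plus strand) encode proteins that bind viral RNA. Isg15 (chr4:156200860-156200911, minus strand) encodes the ubiquitin-like modifier, and Rsad2 (chr12:26456548-26456587, minus strand) encodes viperin, an enzyme that makes a chain-terminating nucleotide. Oas1a (chr5:120907526-120907560, minus strand) encodes an oligoadenylate synthetase and Bst2 (chr8:71537572-71537617, minus strand) encodes tetherin. All are given 5′ to 3′ on the gene's strand.
Ifit1: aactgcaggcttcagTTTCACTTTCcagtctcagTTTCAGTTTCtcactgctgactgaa
Ifit3: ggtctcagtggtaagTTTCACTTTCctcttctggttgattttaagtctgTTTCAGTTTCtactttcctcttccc
Isg15: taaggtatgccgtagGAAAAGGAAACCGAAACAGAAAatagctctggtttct
Rsad2: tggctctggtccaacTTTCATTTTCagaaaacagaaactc
Oas1a: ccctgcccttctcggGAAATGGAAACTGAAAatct
Bst2: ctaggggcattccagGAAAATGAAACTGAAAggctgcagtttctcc

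The Isg15 stretch holds 3 overlapping cores. Promoter windows were found for 28 of the 37 members. The core was in 14 of these (50%), against 3.99% of the 27025 genes with a window. The longer form, in which CT follows the second GAAA, was in 7 of the 28 members (25%), against 0.303% of genes. The core was not seen in the windows of Ifit2, Oasl1, Oasl2, Isg20, Slfn4, Irf7, Irf9, Herc6, Ifi47, Cmpk2, Ifi44, Xaf1, Phf11d and AA467197, which says only that these letters are absent there. Oasl1, Slfn4 and AA467197 are thus among the members without it, although their differences in monocyte-gated cells were among the wider ones. No windows were used for Oas2, Zbp1, Dhx58, Ifi204, Usp18, Rtp4, Mx1, Parp14 and Ifi27l2a.

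The deficient-labelled library held 6133 barcodes with a median of 7539 UMIs, and the wild-type-labelled library held 3020 with a median of 4426.5. Barcodes with fewer than 200 genes, fewer than 500 UMIs or more than 20% of their UMIs from mitochondrial genes were dropped, which left 5890 cells (deficient) and 2610 cells (wild type). The mitochondrial limit was exceeded by 3.26% of deficient-labelled barcodes and 10.8% of wild-type-labelled barcodes. The libraries share 7 barcode sequences. 1700016P04Rik had 0 UMIs in both, which allows a share of up to 0.0489% of deficient-labelled and 0.0993% of wild-type-labelled barcodes with a UMI, so the deleted gene does not check the labels. The deposited file names carry the opposite genotype words. Every direction below follows the titles and genotype labels, and all of them would be exchanged if the file names were right.

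Cell classes were gated on marker genes, none of which is a member. Both libraries together gave 10 classes with at least 30 cells in each, and 5 of them had at least 100 in each and were compared between libraries. These were Ly6c-high monocyte-gated cells (729 deficient-labelled and 293 wild-type-labelled), macrophage-gated cells (579 deficient-labelled and 184 wild-type-labelled), cDC1-gated cells (489 deficient-labelled and 137 wild-type-labelled), cDC2-gated cells (863 deficient-labelled and 464 wild-type-labelled) and neutrophil-gated cells (149 deficient-labelled and 317 wild-type-labelled). The 10 genes most raised in each of these 5 classes held 4 or 5 of its own markers, no marker of another class and no member. Cells were selected by these markers, so the place of the markers there is built in and does not check the class names. Ly6c2 is 1 of the 8 monocyte markers. With 1 library per group no test between genotypes is possible, and intervals cover counting error only: UMIs of a cell are not independent, and the spread between mice is unknown.

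Levels are CPM, the UMIs of a gene scaled to a fixed total of 1e+06 UMIs in the class. A 3′ assay counts each molecule at its end, so levels of different genes are not divided by length. Ifitm3 and Ifi27l2a alone held 115713 of the 215830 member UMIs. Ifitm3, a membrane protein that blocks virus fusion, stood at 3169 CPM in deficient-labelled and 3548 CPM in wild-type-labelled monocyte-gated cells, the highest of the 10 classes measured in both libraries. Ly6C-low monocyte-gated cells followed with 2482 CPM (deficient) and 2378 CPM (wild type), and cDC2-gated cells had 1144 CPM (deficient) and 1112 CPM (wild type). Ifi27l2a, of the Ifi27 family of small hydrophobic proteins, had the same leading classes among these 10, with 1376 CPM (deficient) and 1646 CPM (wild type) in Ly6c-high monocyte-gated cells and 992 CPM (deficient) and 739 CPM (wild type) in Ly6C-low monocyte-gated cells. Fibroblast-gated cells, measured only in the deficient-labelled library, held 1523 CPM of Ifitm3 and 1488 CPM of Ifi27l2a, and their Ifi27l2a level was above that of the monocyte-gated cells there.

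**Figure D1:**
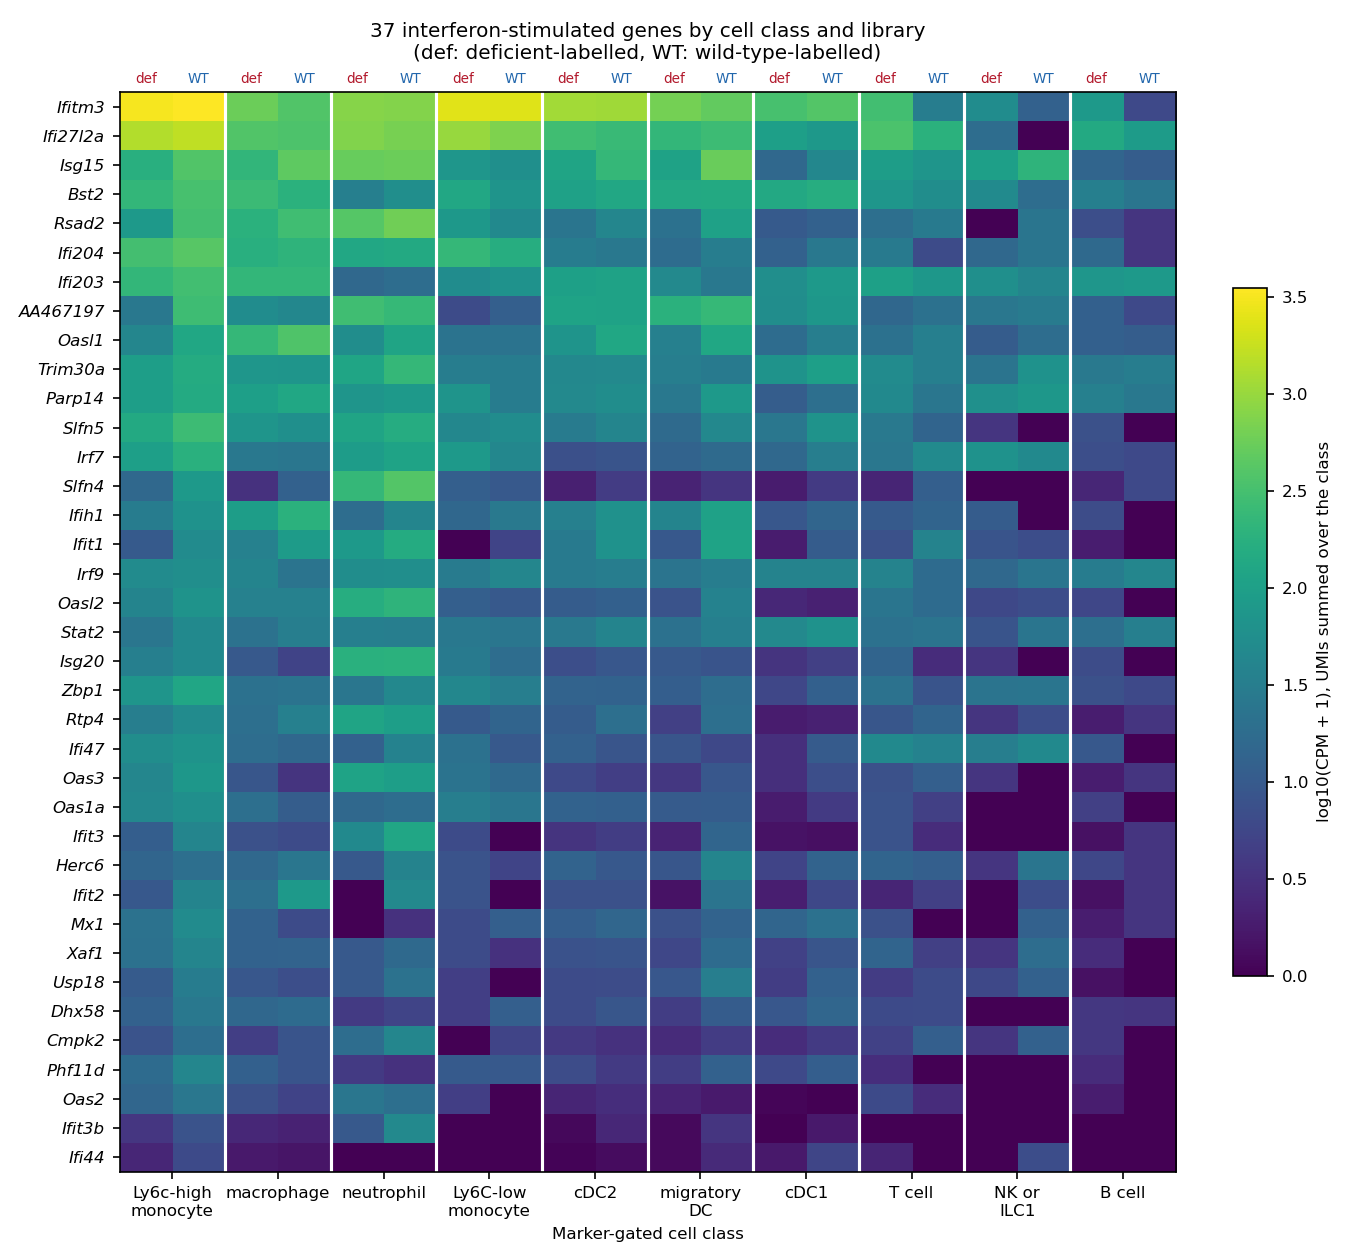
Level of each of the 37 members in 10 marker-gated cell classes, as log10(CPM + 1) in colour, with the deficient-labelled library left of the wild-type-labelled library in each class. Members are ordered by mean CPM, and the brightest cells are Ifitm3 and Ifi27l2a in monocyte-gated cells while most members are dark in B cell-gated cells.

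Below these, members differed in which of the 10 classes led. Neutrophil-gated cells were the highest class for 15 members in the deficient-labelled and 12 in the wild-type-labelled library, Ly6c-high monocyte-gated cells for 13 (deficient) and 18 (wild type), and macrophage-gated cells for 8 (deficient) and 3 (wild type). The highest class was the same in both libraries for 27 of the 37 members. How often each class led over all genes was not counted, so these counts are not read as a result about the members. Neutrophil-gated cells led for Isg15, at 524 CPM (deficient) and 572 CPM (wild type), and for Rsad2, at 408 CPM (deficient) and 593 CPM (wild type). The schlafen family gene Slfn4 was at 231 CPM (deficient) and 397 CPM (wild type) there. Its second class, Ly6c-high monocyte-gated cells, had 15.1 CPM (deficient) and 82.6 CPM (wild type). The exonuclease gene Isg20 was highest in neutrophil-gated cells too, at 180.4 CPM (deficient) and 183 CPM (wild type). These cells held 929 CPM (deficient) and 325 CPM (wild type) of the 9 macrophage markers, with 2 (deficient) and 1 (wild type) at 0, and the part of RNA from macrophages in them was not tested.

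Macrophage-gated cells led for Oasl1, an oligoadenylate synthetase-like protein that limits Irf7 translation, with 230.2 CPM in the deficient-labelled and 370.4 CPM in the wild-type-labelled library. They also led for Ifih1, the cytosolic RNA sensor MDA5, with 92.3 CPM (deficient) and 185 CPM (wild type), and for Ifit2, with 18.7 CPM (deficient) and 78.5 CPM (wild type). Stat2 was the only member highest in cDC1-gated cells, at 46.1 CPM (deficient) and 63.2 CPM (wild type), against 32.5 CPM (deficient, neutrophil-gated cells) and 47.5 CPM (wild type, monocyte-gated cells) in the next class. Bst2 reached 489 CPM in plasma cell-gated cells, measured in the deficient-labelled library only, above its 265 CPM in macrophage-gated cells there. B cell-gated cells had among the lowest levels, with a sum over all members of 559 CPM in the deficient-labelled and 393 CPM in the wild-type-labelled library.

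Summed over the 37 members, the level was lower in the deficient-labelled library in each of the 5 compared classes. The direction turned under 1 setting in neutrophil-gated cells, and after thinning the intervals of macrophage-gated and neutrophil-gated cells reached past 0. With cells thinned to 1000 UMIs the log2 ratio was -0.0927 (-0.23 to 0.0443) in macrophage-gated and -0.0290 (-0.16 to 0.10) in neutrophil-gated cells. Without the 10% of cells with the largest share of member UMIs it was 0.0930 (-0.0248 to 0.21) in neutrophil-gated cells. With all cells, the sum was 6627 CPM in deficient-labelled and 9223 CPM in wild-type-labelled monocyte-gated cells, a log2 ratio of -0.48 (95% counting interval -0.50 to -0.45). In macrophage-gated cells it was 2989 CPM (deficient) and 3443 CPM (wild type), log2 ratio -0.20, in cDC1-gated cells 995 CPM (deficient) and 1373 CPM (wild type), log2 ratio -0.46, in cDC2-gated cells 2358 CPM (deficient) and 2624 CPM (wild type), log2 ratio -0.15, and in neutrophil-gated cells 4576 CPM (deficient) and 5462 CPM (wild type), log2 ratio -0.26. Ifitm3 and Ifi27l2a, summed, stood at 4545 CPM (deficient) and 5194 CPM (wild type) in monocyte-gated cells (-0.19), so they differed less than the rest. Without Ifitm3 and Ifi27l2a, a choice made after the values were seen, the other 35 members summed to 2082 CPM in deficient-labelled and 4029 CPM in wild-type-labelled monocyte-gated cells (log2 ratio -0.95, -0.99 to -0.91). The 35 members stood at 2036 CPM (deficient) and 2697 CPM (wild type) in macrophage-gated cells (-0.41), 568 CPM (deficient) and 896 CPM (wild type) in cDC1-gated cells (-0.66), 930 CPM (deficient) and 1261 CPM (wild type) in cDC2-gated cells (-0.44) and 3032 CPM (deficient) and 4029 CPM (wild type) in neutrophil-gated cells (-0.41).

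**Figure D2:**
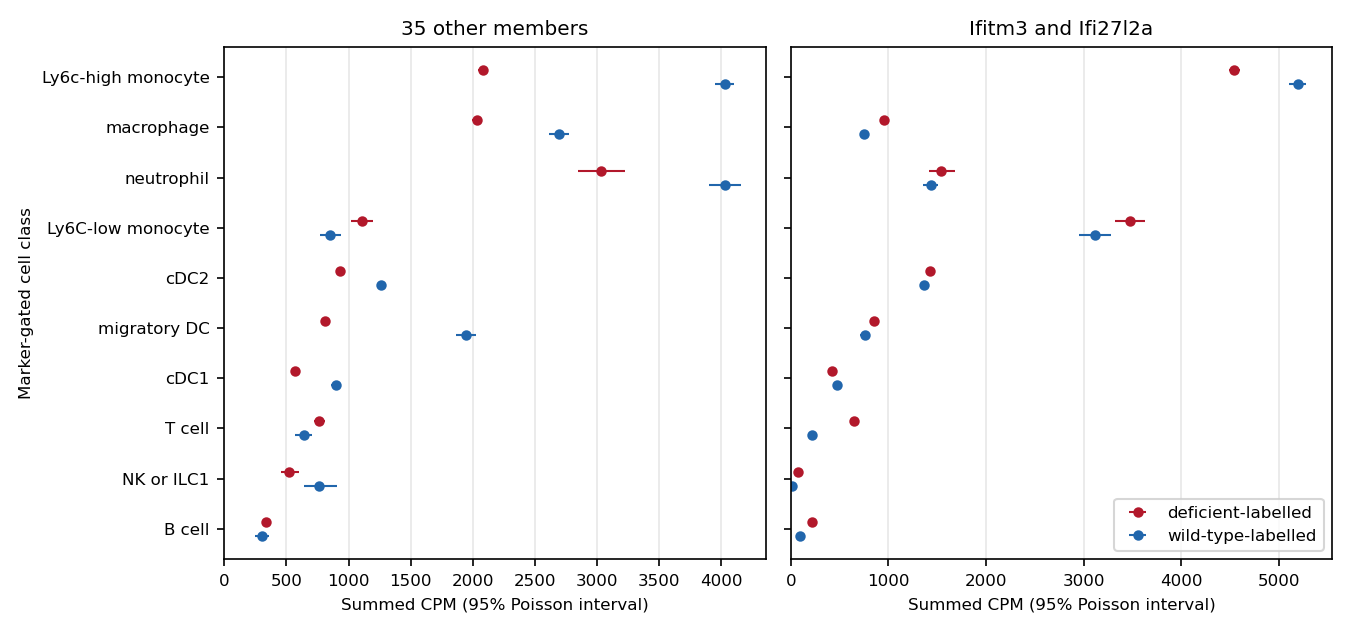
Summed level of 35 members (left) and of Ifitm3 with Ifi27l2a (right) in 10 marker-gated cell classes, in CPM from 0, with red points for the deficient-labelled library drawn above blue points for the wild-type-labelled library and bars for 95% Poisson intervals. The 35 members stand at 2082 CPM (deficient) and 4029 CPM (wild type) in Ly6c-high monocyte-gated cells and the abundant pair at 4545 CPM (deficient) and 5194 CPM (wild type).

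Classes with fewer cells did not all lie on the same side. Migratory dendritic cell-gated cells (317 deficient-labelled and 83 wild-type-labelled) had 814 CPM (deficient) and 1945 CPM (wild type) of the 35 members, a log2 ratio of -1.26. Isg15 stood there at 110 CPM in the deficient-labelled and 543 CPM in the wild-type-labelled library. In Ly6C-low monocyte-gated cells the 35 members were at 1106 CPM (deficient) and 852 CPM (wild type), log2 ratio 0.38 (0.19 to 0.56), beside 188 CPM (deficient) and 1398 CPM (wild type) of the 6 neutrophil markers, with 1 (deficient) and 0 (wild type) of them at 0. The part of neutrophil RNA there was not tested. They were higher, too, in T cell-gated cells, with 762 CPM (deficient) and 638 CPM (wild type), log2 ratio 0.26 (0.08 to 0.43). Ifitm3 was at 297 CPM in deficient-labelled and 31.0 CPM in wild-type-labelled T cell-gated cells, and at 79.2 CPM (deficient) and 5.14 CPM (wild type) in B cell-gated cells. Lyz2, a myeloid gene, moved with it, at 801 CPM (deficient) and 74.7 CPM (wild type) in T cell-gated cells and 332 CPM (deficient) and 41.1 CPM (wild type) in B cell-gated cells. The 8 markers of Ly6c-high monocytes summed to 578 CPM (deficient) and 286 CPM (wild type) in T cell-gated cells, with 0 (deficient) and 3 (wild type) of them at 0, and to 925 CPM (deficient) and 622 CPM (wild type) in B cell-gated cells, with 0 (deficient) and 2 (wild type) at 0. The part of RNA from myeloid cells in these lymphocyte values was not tested.

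Member by member, a gene was measured in a class if the 2 libraries together held 50 UMIs or more of it, and a size of 1.5-fold in CPM stands in for a test. In monocyte-gated cells 25 of 35 measured members were lower by at least 1.5-fold in the deficient-labelled library, against 6.62% of all 7520 genes measured. None was higher, against 7.99% of genes. All 35 log2 ratios were below 0, with a median of -0.85 beside 0.01 over all genes. In cDC1-gated cells 15 of 23 were lower (background 6.93%) and 0 were higher (6.18%), with a median of -0.76 beside -0.03. Macrophage-gated cells had 9 of 30 lower (6.09%) and 5 higher (9.74%), and their median was -0.01 beside 0.04. In cDC2-gated cells 7 of 31 were lower (4.25%) and 1 was higher (6.61%), with a median of -0.15 beside 0.03. Neutrophil-gated cells had 6 of 20 lower (9.54%) and 0 higher (9.93%), with a median of -0.23 beside 0.01. At a size of 2-fold 15 members were lower in monocyte-gated (1.42%), 4 in macrophage-gated (1.31%), 8 in cDC1-gated (1.3%), 1 in cDC2-gated (0.802%) and 2 in neutrophil-gated cells (2.17%), and 2 were higher in macrophage-gated cells (3.07%) and 0 in cDC2-gated cells (1.74%). With at least 200 UMIs, 5 were lower in cDC1-gated (3.66%) and 2 in neutrophil-gated cells (4.85%), and 1 was higher in macrophage-gated (6.28%) and 0 in cDC2-gated cells (3.24%). With at least 1 UMI in each library, 24 were lower in cDC1-gated (17.2%) and 14 in neutrophil-gated cells (14.7%). Members that passed the count minimum mainly through the library where they are high had to differ, so these medians describe measured members and not all 37.

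**Figure D3:**
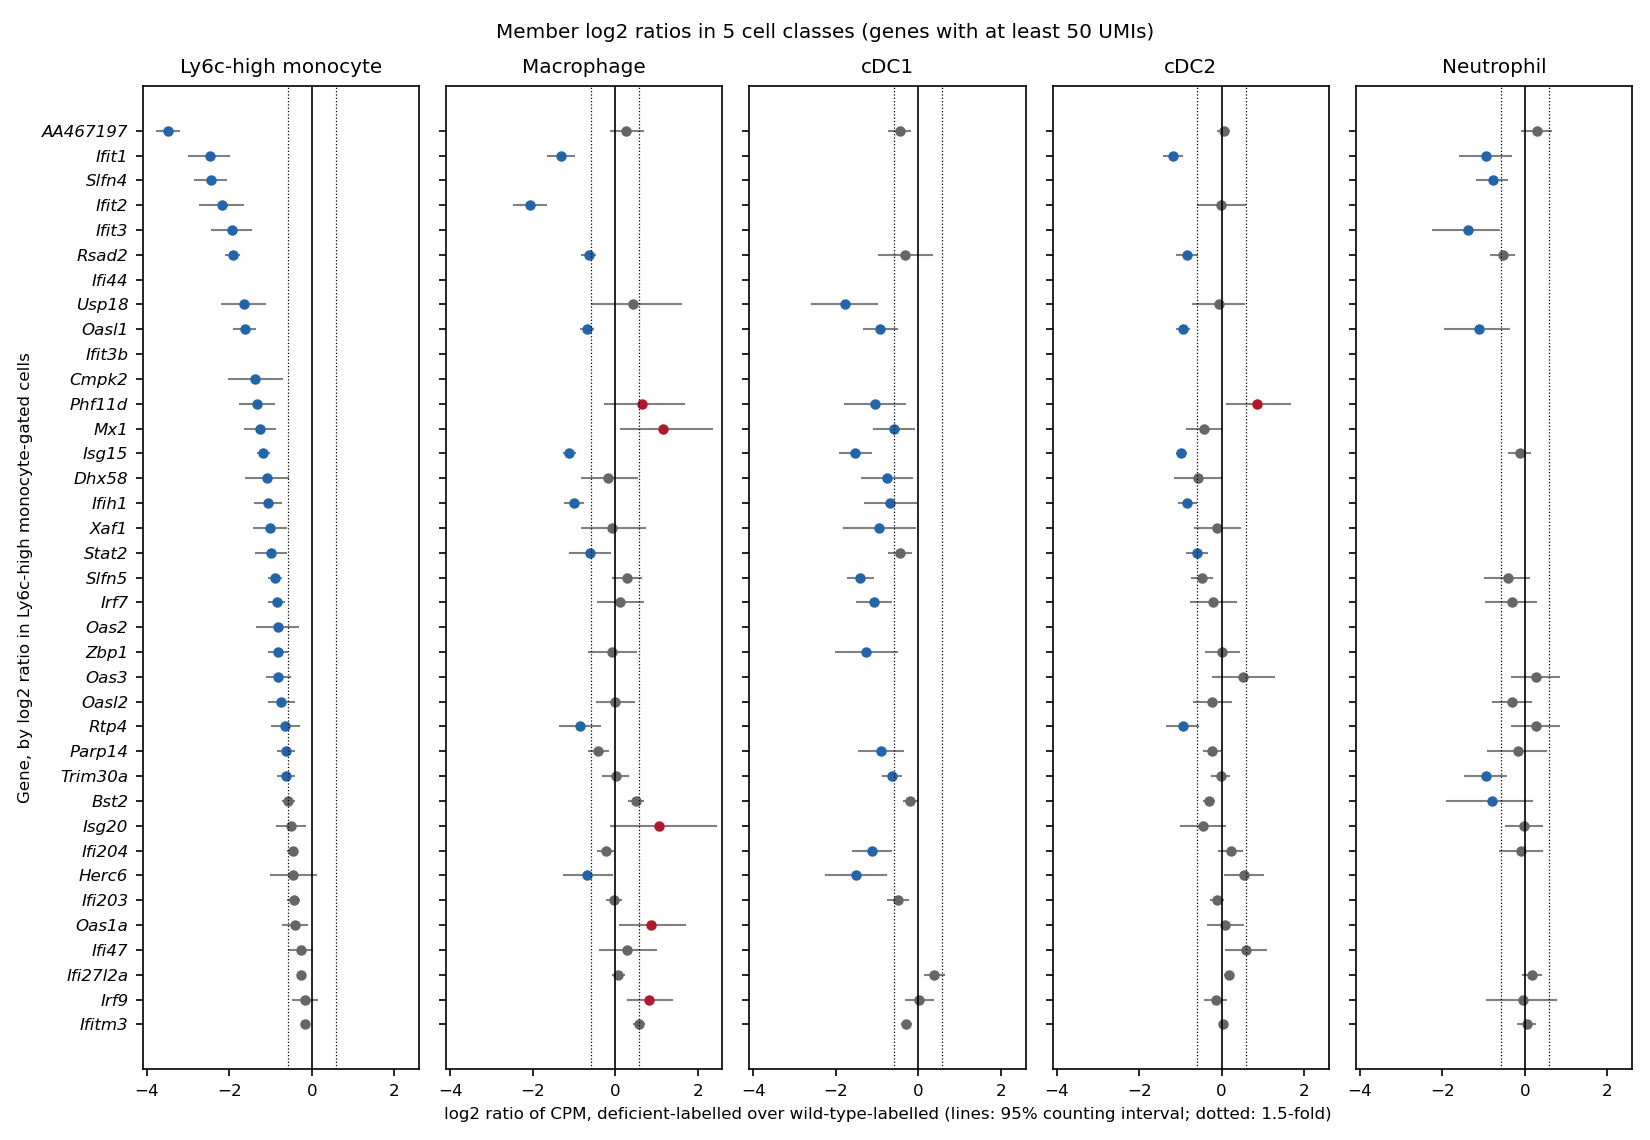
Log2 of the deficient CPM divided by the wild-type CPM, for members with 50 UMIs or more in each of 5 cell classes, ordered by the ratio in monocyte-gated cells. Blue points are at least 1.5-fold lower, red at least 1.5-fold higher and grey between, and lines are 95% counting intervals. All monocyte points lie left of 0, from -3.48 for AA467197 to -0.16 for Ifitm3, while macrophage points fall on both sides.

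Oasl1 was the only member at least 1.5-fold lower in all 5 gated classes. With classes taken from clusters its log2 ratio was -0.64 in monocytes, -1.09 in cDC1, -0.94 in cDC2 and -1.24 in neutrophils, but -0.52 in macrophages, short of that size. Isg15, Ifit1 and Ifih1 were at least 1.5-fold lower in 4 classes. Isg15 was within that size in neutrophil-gated cells. Ifih1 was not measured in neutrophil-gated cells, where it had 6 UMIs (deficient) and 36 UMIs (wild type). Ifit1 was not measured in cDC1-gated cells, where it had 33 UMIs in all. At the other end, 7 measured members were lower by that size in no class, namely Oas1a, Isg20, Irf9, Ifi203, Ifitm3, Ifi47 and Ifi27l2a. Ifit3b and Ifi44 reached 50 UMIs in no compared class.

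The RNA-binding and RNA-degrading effectors, 13 members, had 10 of 12 measured members lower in monocyte-gated cells. Ifit1 stood at 9.14 CPM in deficient-labelled and 50.9 CPM in wild-type-labelled monocyte-gated cells (log2 ratio -2.48, -2.97 to -2.0, and -1.57 in monocytes taken from clusters), 35.8 CPM (deficient) and 88.8 CPM (wild type) in macrophage-gated cells (-1.31) and 28.0 CPM (deficient) and 63.4 CPM (wild type) in cDC2-gated cells (-1.18). Ifit1 and Ifit2, which lie side by side with Ifit3 and Ifit3b on chromosome 19, had different ratios in cDC2-gated cells, though few cells carried the Ifit2 values. Ifit2 was at 18.7 CPM (deficient) and 78.5 CPM (wild type) in macrophage-gated cells (-2.07, -2.47 to -1.69), the widest macrophage difference, but at 6.54 CPM (deficient) and 6.57 CPM (wild type) in cDC2-gated cells (-0.01). Of the wild-type-labelled macrophage-gated cells, 3 held at least 50% of the 130 Ifit2 UMIs, with 46 in 1 cell. Of the 69 Ifit2 UMIs in deficient-labelled cDC2-gated cells, 1 cell held 38, so the ratio of -0.01 depends on that cell. Ifit3 had 58 UMIs (deficient) and 106 UMIs (wild type) in monocyte-gated cells (-1.94) and 16 UMIs (deficient) and 112 UMIs (wild type) in neutrophil-gated cells (-1.38). In neutrophil-gated cells Ifit2 had 0 UMIs (deficient) and 41 UMIs (wild type), too few to measure. Ifit3b had fewer than 50 UMIs in every compared class.

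Slfn4 was at 15.1 CPM in deficient-labelled and 82.6 CPM in wild-type-labelled monocyte-gated cells (log2 ratio -2.46, -2.84 to -2.09, and -1.57 in monocytes taken from clusters). Of its 219 UMIs in the wild-type-labelled monocyte-gated cells, 7 cells held 118. In neutrophil-gated cells Slfn4 was at 231 CPM (deficient) and 397 CPM (wild type), log2 ratio -0.78. Slfn5, of the same family, had a smaller difference in monocyte-gated cells, with 144 CPM (deficient) and 267 CPM (wild type), log2 ratio -0.90, and stood at 24.5 CPM (deficient) and 65.1 CPM (wild type) in cDC1-gated cells (-1.41). In the wild-type-labelled cDC1-gated cells 1 cell held 52 of the 173 Slfn5 UMIs. Oasl1 was at 41.2 CPM (deficient) and 128 CPM (wild type) in monocyte-gated cells (-1.63) and 53.2 CPM (deficient) and 116 CPM (wild type) in neutrophil-gated cells (-1.12). Zbp1, a sensor of Z-form nucleic acid, was at 70.4 CPM (deficient) and 124 CPM (wild type) in monocyte-gated cells (-0.82). The oligoadenylate synthetases, which activate RNase L, were less uniform. Oas2, Oas3 and Oasl2 were lower in monocyte-gated cells, with log2 ratios between -0.83 and -0.74. Oas3 in neutrophil-gated cells was at 115 CPM (deficient) and 95.9 CPM (wild type), log2 ratio 0.27 (-0.32 to 0.83). Oas1a was at 43.9 CPM (deficient) and 58.5 CPM (wild type) in monocyte-gated cells (-0.41) and at 18.7 CPM (deficient) and 10.3 CPM (wild type) in macrophage-gated cells (0.86, 0.11 to 1.70). Its last 500 transcript bases match Oas1g at 98%, so its counts may be affected, and how such reads were assigned was not tested. Oas1a is the only 1 of 37 members with such a match.

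Of the 7 sensors and signalling members, 4 were lower in monocyte-gated cells and 3 (Irf9, Ifi203 and Ifi204) were between the limits. Ifih1 stood at 29.8 CPM in deficient-labelled and 62.6 CPM in wild-type-labelled monocyte-gated cells (log2 ratio -1.07), 92.3 CPM (deficient) and 185 CPM (wild type) in macrophage-gated cells (-1.0) and 34.3 CPM (deficient) and 61.2 CPM (wild type) in cDC2-gated cells (-0.83). Dhx58, the sensor LGP2, was at 11.8 CPM (deficient) and 25.3 CPM (wild type) in monocyte-gated cells (-1.10). The members of the interferon-activated transcription complex did not move together. Stat2 was at 23.8 CPM (deficient) and 47.5 CPM (wild type) in monocyte-gated cells (-1.0), whereas its partner Irf9 was at 50.4 CPM (deficient) and 56.6 CPM (wild type), log2 ratio -0.17 (-0.46 to 0.13). In macrophage-gated cells Stat2 was at 20.9 CPM (deficient) and 32.0 CPM (wild type), log2 ratio -0.62, and Irf9 at 39.5 CPM (deficient) and 22.4 CPM (wild type), log2 ratio 0.82 (0.31 to 1.37). Irf9 shares exon sequence on its strand with Rnf31, and 6 other members (Ifi203, Herc6, Rtp4, Ifi47, Parp14 and AA467197) overlap another gene in the same way. Their counts may be affected, and how reads in the overlaps were assigned was not tested. Irf7, the factor that amplifies interferon transcription, was at 98.4 CPM (deficient) and 178 CPM (wild type) in monocyte-gated cells (-0.85) and 15.1 CPM (deficient) and 31.6 CPM (wild type) in cDC1-gated cells (-1.07).

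The abundant DNA-binding genes of the HIN-200 family were nearer 0. Ifi204 was at 304 CPM in deficient-labelled and 418 CPM in wild-type-labelled monocyte-gated cells (log2 ratio -0.46) and 172 CPM (deficient) and 202 CPM (wild type) in macrophage-gated cells (-0.23). In cDC1-gated cells it was 11.7 CPM (deficient) and 25.6 CPM (wild type), log2 ratio -1.13, its widest difference. Ifi203 was at 222 CPM (deficient) and 302 CPM (wild type) in monocyte-gated cells (-0.44) and 223 CPM (deficient) and 226 CPM (wild type) in macrophage-gated cells (-0.02).

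The 4 members of the ubiquitin-like modifier system were all at least 1.5-fold lower in cDC1-gated cells, and 3 of them in monocyte-gated cells. Isg15 stood at 173 CPM in deficient-labelled and 390.1 CPM in wild-type-labelled monocyte-gated cells (log2 ratio -1.18, -1.30 to -1.05), 216 CPM (deficient) and 468 CPM (wild type) in macrophage-gated cells (-1.12), 15.1 CPM (deficient) and 43.7 CPM (wild type) in cDC1-gated cells (-1.53) and 116 CPM (deficient) and 228 CPM (wild type) in cDC2-gated cells (-0.98). In neutrophil-gated cells, its highest class, it was at 524 CPM (deficient) and 572 CPM (wild type), log2 ratio -0.13 (-0.38 to 0.12). With classes taken from clusters the Isg15 log2 ratio was -0.44 in monocytes, within 1.5-fold, and -0.61 in neutrophils, past it. It was then -1.23 in macrophages, -1.58 in cDC1 and -1.07 in cDC2. Usp18, which strips Isg15 from proteins and restrains the interferon receptor, was at 9.50 CPM (deficient) and 29.8 CPM (wild type) in monocyte-gated cells (-1.65). Herc6, an Isg15 ligase in the mouse, was at 14.7 CPM (deficient) and 23.6 CPM (wild type) in macrophage-gated cells (-0.68), 4.34 CPM (deficient) and 12.4 CPM (wild type) in cDC1-gated cells (-1.52) and 12.5 CPM (deficient) and 8.61 CPM (wild type) in cDC2-gated cells (0.54, 0.09 to 1.01). Trim30a, of the tripartite motif ligase family, was at 97.5 CPM (deficient) and 150.1 CPM (wild type) in monocyte-gated cells (-0.62), 71.3 CPM (deficient) and 70.7 CPM (wild type) in macrophage-gated cells (0.01) and 121 CPM (deficient) and 233 CPM (wild type) in neutrophil-gated cells (-0.94).

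Among the 5 members that act at membranes or on virus entry and release, only Rtp4 and Mx1 were at least 1.5-fold lower in monocyte-gated cells. Ifitm3 differed little there (log2 ratio -0.16), and in macrophage-gated cells it was at 569 CPM in the deficient-labelled and 381 CPM in the wild-type-labelled library (0.58, 0.46 to 0.71). Bst2 was also on both sides of 0, with 221 CPM (deficient) and 329 CPM (wild type) in monocyte-gated cells (-0.57) and 265 CPM (deficient) and 187 CPM (wild type) in macrophage-gated cells (0.50). Mx1, a dynamin-like GTPase, was at 20.97 CPM (deficient) and 50.2 CPM (wild type) in monocyte-gated cells (-1.26). In macrophage-gated cells Mx1 was at 12.1 CPM (deficient) and 5.44 CPM (wild type), log2 ratio 1.16, from 65 UMIs (deficient) and 9 UMIs (wild type). Rtp4 was at 31.9 CPM (deficient) and 49.8 CPM (wild type) in monocyte-gated cells (-0.64), 9.86 CPM (deficient) and 19.0 CPM (wild type) in cDC2-gated cells (-0.94) and 118 CPM (deficient) and 98.1 CPM (wild type) in neutrophil-gated cells (0.27, -0.31 to 0.82). Ifi47, an immunity-related GTPase, was at 54.5 CPM (deficient) and 66.0 CPM (wild type) in monocyte-gated cells (-0.28) and 11.6 CPM (deficient) and 7.74 CPM (wild type) in cDC2-gated cells (0.58, 0.10 to 1.07).

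All 3 nucleotide and ADP-ribose enzymes were lower in monocyte-gated cells. Rsad2 was at 81.7 CPM in deficient-labelled and 310.5 CPM in wild-type-labelled monocyte-gated cells (log2 ratio -1.93, -2.09 to -1.76, and -1.14 in monocytes taken from clusters), 184 CPM (deficient) and 286 CPM (wild type) in macrophage-gated cells (-0.64) and 23.3 CPM (deficient) and 41.8 CPM (wild type) in cDC2-gated cells (-0.84). Its neighbour on chromosome 12, the mitochondrial nucleotide kinase gene Cmpk2, was at 6.99 CPM (deficient) and 18.1 CPM (wild type) in monocyte-gated cells (-1.37). Parp14, an ADP-ribosyltransferase, was at 95.9 CPM (deficient) and 149 CPM (wild type) in monocyte-gated cells (-0.64) and 98.5 CPM (deficient) and 131 CPM (wild type) in macrophage-gated cells (-0.41).

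The remaining 5 members included the widest difference of all. AA467197, whose transcript carries Mir147 in the annotation, was at 25.3 CPM in deficient-labelled and 283 CPM in wild-type-labelled monocyte-gated cells (log2 ratio -3.48, -3.75 to -3.22). That difference lay almost wholly in cluster c4, described further on, and with classes taken from clusters, which leave c4 out of the monocytes, the log2 ratio was 0.10. Outside monocytes the ratio was nearer 0, with 54.0 CPM (deficient) and 74.2 CPM (wild type) in cDC1-gated cells (-0.46), 52.6 CPM (deficient) and 43.5 CPM (wild type) in macrophage-gated cells (0.27), 113 CPM (deficient) and 109.5 CPM (wild type) in cDC2-gated cells (0.05) and 293 CPM (deficient) and 239 CPM (wild type) in neutrophil-gated cells (0.29, -0.07 to 0.64). Xaf1 (-1.02) and Phf11d (-1.33) were also lower in monocyte-gated cells. Phf11d, a PHD-finger gene, was at 5.60 CPM (deficient) and 3.07 CPM (wild type) in cDC2-gated cells (0.87, 0.13 to 1.66). The Ifi27l2a ratio ran from -0.26 in monocyte-gated cells to 0.39 in cDC1-gated cells. Ifi44 had 22 UMIs in monocyte-gated cells, too few to measure there.

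Members with and without an ISRE core were set side by side, and the order of the counts differed among classes. In monocyte-gated cells, of 13 measured members with the core 9 were lower, and of 13 without it 9 were lower, with medians of -0.90 and -1.02. In cDC2-gated cells 5 of 12 with the core and 1 of 11 without it were lower, and in macrophage-gated cells 5 of 11 with it and 3 of 11 without it. In cDC1-gated cells 4 of 9 with the core and 5 of 7 without it were lower, with medians of -0.50 and -0.96, and in neutrophil-gated cells 4 of 9 with it and 2 of 7 without it. Of all genes measured, 6.62% (monocyte), 4.25% (cDC2), 6.09% (macrophage), 6.93% (cDC1) and 9.54% (neutrophil) were lower. In macrophage-gated cells 1 of 11 with the core and 3 of 11 without it were higher, against 9.74% of genes. In cDC2-gated cells 0 of 12 with it and 1 of 11 without it were higher (6.61%). No count was tested against these shares. The 3 members with the highest macrophage ratios among those with at least 100 UMIs were Oas1a, Irf9 and Ifitm3, of which Oas1a and Ifitm3 have the core.

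Within a class the members were concentrated in few cells. After each cell was thinned at random to 1000 UMIs, the 10% of monocyte-gated cells with the most UMIs of the 35 members held 43.0% of them in the deficient-labelled and 54.5% in the wild-type-labelled library. Cells with at least 5 of the 35 members made up 7.06% of deficient-labelled (5.30% to 9.18%, exact Clopper-Pearson 95% interval) and 17.1% of wild-type-labelled monocyte-gated cells (12.9% to 22.1%). The unthinned median depth was 7756 UMIs (deficient) and 9872 UMIs (wild type), and 7 cells (deficient) and 13 cells (wild type) were too shallow to thin. The share was 5.51% (deficient) and 7.43% (wild type) in macrophage-gated cells, 0.410% (deficient) and 2.94% (wild type) in cDC1-gated cells, 1.17% (deficient) and 3.04% (wild type) in cDC2-gated cells and 12.5% (deficient) and 12.7% (wild type) in neutrophil-gated cells. In B cell-gated cells, a class low in these genes, the mean was 0.321 (deficient) and 0.373 (wild type) member UMIs in 1000, against 2.07 (deficient) and 4.45 (wild type) in monocyte-gated cells. Monocyte-gated cells with none of the 35 members made up 28.8% (deficient) and 22.9% (wild type), a narrower gap than that in cells with at least 5 members.

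**Figure D4:**
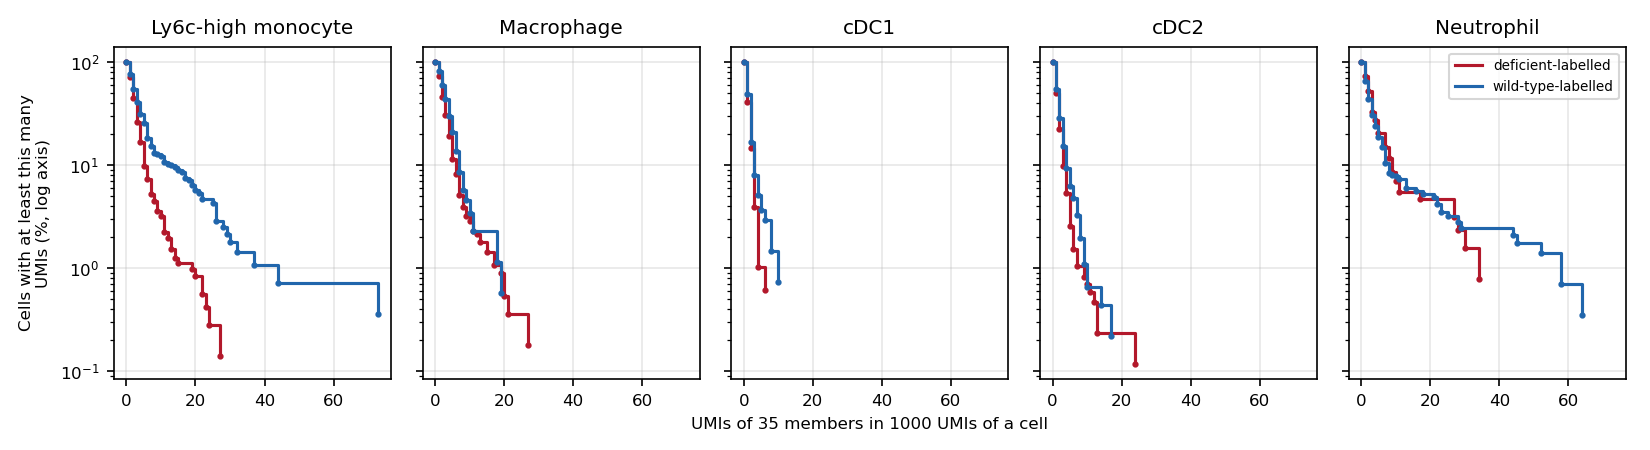
Share of cells (log axis, in percent) with at least a given number of UMIs of the 35 members in 1000 UMIs of a cell, in 5 cell classes, red for the deficient-labelled and blue for the wild-type-labelled library. In monocyte-gated cells 3.19% of deficient-labelled and 12.1% of wild-type-labelled cells have at least 10, and in neutrophil-gated cells 7.03% (deficient) and 7.75% (wild type) do.

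In the 4 classes compared, cells with Isg15 held more UMIs of the other members in sum. The cDC1-gated cells, of which 6 (deficient) and 5 (wild type) had an Isg15 UMI after thinning, were not compared in this way. Cells with an Isg15 UMI in their 1000 held 3875 CPM of the other 34 members in deficient-labelled monocyte-gated cells, against 1581 CPM in cells without, a ratio of 2.45. In the wild-type-labelled library these values were 11554 and 2138 CPM, a ratio of 5.40. The ratio was 1.71 (deficient) and 1.65 (wild type) in macrophage-gated cells, 2.07 (deficient) and 2.20 (wild type) in cDC2-gated cells and 3.55 (deficient) and 6.51 (wild type) in neutrophil-gated cells. Of the members with at least 10 UMIs, 22 of 24 in deficient-labelled and 24 of 25 in wild-type-labelled monocyte-gated cells were higher in the Isg15-positive cells, Irf9 being an exception in both. The count was 14 of 18 (deficient) and 9 of 11 (wild type) in macrophage-gated cells, 12 of 19 (deficient) and 11 of 16 (wild type) in cDC2-gated cells and 13 of 14 (deficient) and 24 of 24 (wild type) in neutrophil-gated cells. Rsad2 was among the exceptions in deficient-labelled cDC2-gated cells. The same ratios and counts over all genes were not made, so these numbers are not read as a result about the members.

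The 10% of cells with the largest share of member UMIs carried much of the difference in some classes and little in others. Without them, an alternative chosen after seeing the data, the 35 members were at 1445 CPM in deficient-labelled and 2481 CPM in wild-type-labelled monocyte-gated cells (log2 ratio -0.78), and 22 of 30 measured members were lower (6.7% of genes) and 0 higher (7.98%). Macrophage-gated cells were then at 1523 CPM (deficient) and 2013 CPM (wild type), log2 ratio -0.40, and cDC2-gated cells at 658 CPM (deficient) and 865 CPM (wild type), log2 ratio -0.39, with 7 of 26 members lower (6.34%) and 1 higher (9.44%) in macrophage-gated cells and 9 of 29 lower (4.77%) and 1 higher (6.16%) in cDC2-gated cells. In cDC1-gated cells the ratio was -0.24 and only 1 of 17 measured members, Ifi203, was lower (7.81%), with 0 higher (6.13%). In neutrophil-gated cells the direction turned, with 1714 CPM (deficient) and 1511 CPM (wild type), log2 ratio 0.18 (0.03 to 0.33), and 3 of 13 members were lower (10.1%) and 3 higher (10.9%).

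Clusters made without the members and the pathway genes divided the gates further. Most monocyte-gated cells were in cluster c1, led by Chil3 and Ly6c2, where 486 deficient-labelled and 168 wild-type-labelled cells had 2107 CPM (deficient) and 2996 CPM (wild type) of the 35 members (log2 ratio -0.51, -0.56 to -0.46). The difference was widest in cluster c4, which stays unnamed and is led by the cytokine and prostaglandin genes Il1a, Ccl2, Inhba, Cxcl1 and Ptgs2. Its 116 deficient-labelled and 46 wild-type-labelled monocyte-gated cells had 1958 CPM (deficient) and 11113 CPM (wild type), log2 ratio -2.50 (-2.59 to -2.42). Cluster c20 had 2174 CPM (deficient) and 4411 CPM (wild type), log2 ratio -1.02, and c12, with 30 cells (deficient) and 19 cells (wild type), had 1429 CPM (deficient) and 1620 CPM (wild type), log2 ratio -0.18 (-0.43 to 0.07). The macrophage-gated cells of c4 were at 1650 CPM (deficient) and 1961 CPM (wild type), log2 ratio -0.25, and those of c6, which held most of that gate, were at 2373 CPM (deficient) and 3250 CPM (wild type), log2 ratio -0.45. Those of c23, 76 cells (deficient) and 13 cells (wild type), were at 1651 CPM (deficient) and 1502 CPM (wild type), log2 ratio 0.14 (-0.11 to 0.38). Ifitm3 was lower in these c23 cells, at 644 CPM (deficient) and 1153 CPM (wild type). It was higher in the macrophage-gated cells of c4, at 821 CPM (deficient) and 445 CPM (wild type), and of c6, at 488 CPM (deficient) and 233 CPM (wild type). In cDC1-gated cells the difference lay in c7, with 558 CPM (deficient) and 1122 CPM (wild type), log2 ratio -1.01, while c15, led by the cell cycle genes Pclaf and Top2a, was at 526 CPM (deficient) and 507 CPM (wild type), log2 ratio 0.05 (-0.09 to 0.20). The log2 ratio also differed among the clusters of cDC2-gated cells. It was -0.67 in c0, -0.28 in c5, -0.04 (-0.18 to 0.10) in c9 and -0.04 (-0.17 to 0.08) in c11. In c4, with 19 cDC2-gated cells (deficient) and 11 (wild type), it was -1.82.

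**Figure D5:**
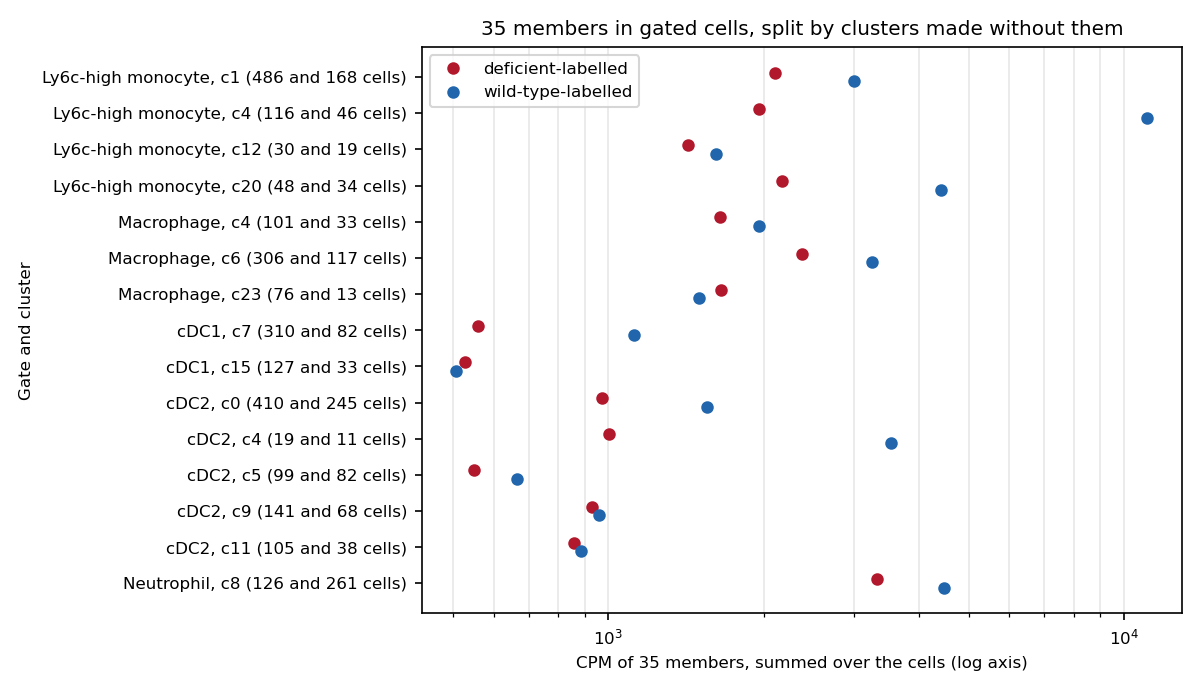
Summed CPM of the 35 members (log axis) in gated cells divided by cluster, with red points for the deficient-labelled library drawn above blue points for the wild-type-labelled library and the number of cells beside each gate and cluster. Neutrophil-gated cells of cluster c2, at 187 CPM (deficient) and 125 CPM (wild type) from few UMIs, are left out. The widest gap is 1958 CPM (deficient) against 11113 CPM (wild type) in monocyte-gated cells of c4.

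A few wild-type-labelled cells held a large part of the UMIs of some members. Of the 749 AA467197 UMIs in wild-type-labelled monocyte-gated cells, 723 were in c4, and 5 cells held 380 of them, with up to 97 in a cell. Of the 141 UMIs in deficient-labelled monocyte-gated cells, 2 cells held 76. Without these cells, AA467197 stood at 11.7 CPM (deficient) and 143 CPM (wild type). The 33 wild-type-labelled monocyte-gated cells with an AA467197 UMI had 394 CPM of Ifnb1 and 1633 CPM of Isg15, against 8.95 and 229 CPM in the 260 cells without. That Ifnb1 level rests largely on 1 cell, which held 109 of the 141 Ifnb1 UMIs of the class in this library. The 5 cells that held 380 AA467197 UMIs had 10 Ifnb1 UMIs. In those 33 cells S100a8 was at 13.1 CPM and S100a9 at 29.6 CPM, near the 11.1 and 20.5 CPM of the other 260. The 44 deficient-labelled cells with an AA467197 UMI had 116 CPM of S100a8 and 97.7 CPM of S100a9, against 17.7 and 25.1 CPM in the 685 without. Of the 2 deficient-labelled cells that held 76 UMIs, 1 lay in a cluster named neutrophil. Neutrophil-gated cells summed to 58173 CPM (deficient) and 73858 CPM (wild type) of the 6 neutrophil markers, which is a sum and not a single-gene level. The part of neutrophil RNA in these monocyte-gated cells was not tested. For Ifit1, 4 wild-type-labelled cells held 74 of 135 UMIs, and without the cells that hold most of its UMIs in each library Ifit1 was at 4.36 CPM (deficient) and 23.4 CPM (wild type). Only 2 of these 4 cells were in c4, and 1 of the 4 held 109 of the 141 Ifnb1 UMIs. Other members were spread more widely in monocyte-gated cells, and 38 wild-type-labelled cells held 202 of the 398 Trim30a UMIs and 74 held 4741 of the 9404 Ifitm3 UMIs. Few cells also carried some members in the 137 wild-type-labelled cDC1-gated cells. At least 50% of the UMIs lay in 3 cells for Slfn5 (173 UMIs) and Irf7 (84 UMIs), and in 4 cells for Isg15 (116 UMIs). For Trim30a (269 UMIs) it took 22 cells.

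A wider list of 95 interferon pathway genes was set beside the members. In monocyte-gated cells 22 of 74 measured were lower by at least 1.5-fold (6.62% of all genes) and 6 were higher (7.99% of all genes), with a median of -0.26. The 6 higher of 74 are close to the share over all genes, and nothing is read from them. By group, 18 of 48 further interferon-stimulated genes and 3 of 9 sensors were lower, and the sensor gene Nlrc5 was higher. None of the 16 measured receptor and signalling genes was lower, and 2 of them, Ifngr2 and Jak2, were higher. The others of these 6 were Gbp2, Gbp3 and Gbp5, which encode guanylate-binding proteins. Macrophage-gated cells had 7 of 73 lower (6.09% of all genes) and 9 higher (9.74%), and cDC1-gated cells 17 of 65 lower (6.93%) and 3 higher (6.18%). In cDC2-gated cells 2 of 71 were lower (4.25%) and 8 higher (6.61%), and in neutrophil-gated cells 5 of 32 were lower (9.54%) and 1 higher (9.93%).

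Interferon beta itself, Ifnb1, had 31 UMIs in deficient-labelled and 141 in wild-type-labelled monocyte-gated cells, or 5.56 CPM (deficient) and 53.2 CPM (wild type), log2 ratio -3.26 (-3.87 to -2.69). Much of this rested on 1 wild-type-labelled cell, which held 109 of the 141 UMIs. Ifnb1 was detected in 20 of 729 deficient-labelled cells (2.74%) and 9 of 293 wild-type-labelled cells (3.07%). Without that 1 cell, a choice made after the values were seen, the wild-type-labelled level was 12.1 CPM and the log2 ratio -1.12 (-1.88 to -0.36). When the 5 deficient-labelled cells that held 16 of the 31 UMIs were also left out, the levels were 2.72 CPM (deficient) and 12.1 CPM (wild type), log2 ratio -2.16 (-3.15 to -1.23). In macrophage-gated cells it was at 38.2 CPM (deficient) and 166 CPM (wild type), log2 ratio -2.11, and in cDC2-gated cells at 6.45 CPM (deficient) and 26.9 CPM (wild type), log2 ratio -2.06. Cxcl10, an interferon-induced chemokine, was at 194 CPM (deficient) and 463 CPM (wild type) in monocyte-gated cells (-1.25), 507 CPM (deficient) and 1314 CPM (wild type) in macrophage-gated cells (-1.38) and 75.3 CPM (deficient) and 186 CPM (wild type) in cDC1-gated cells (-1.30). Samd9l was at 30.5 CPM (deficient) and 63.8 CPM (wild type) in monocyte-gated cells (-1.07) and 22.0 CPM (deficient) and 40.5 CPM (wild type) in macrophage-gated cells (-0.88). The HIN-200 gene Ifi206 was at 13.6 CPM (deficient) and 43.0 CPM (wild type) in monocyte-gated cells, log2 ratio -1.66. Ddx58, the RNA sensor RIG-I, was at 18.1 CPM (deficient) and 42.3 CPM (wild type) there, log2 ratio -1.22. Both stood within 1.5-fold in macrophage-gated cells, with log2 ratios of 0.28 for Ifi206 and 0.08 for Ddx58. Ly6a was higher in macrophage-gated cells, at 37.9 CPM (deficient) and 15.7 CPM (wild type), log2 ratio 1.27 (0.68 to 1.92).

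Over 20 points, 10 classes in 2 libraries, the genes whose level most resembled the summed members among 9352 compared were Ptafr (Spearman rho 0.968), Slfn2 (0.964), Pirb and Lilrb4a (both 0.956), Sqor (0.952), Tlr2 (0.949), Gm9733 (0.948), Slc15a3 (0.947), Vill (0.946) and Gm49339 (0.945). The points of a class share their markers and the points of a library share its depth, so these are descriptions with no test. Against the sum of the 35 members without Ifitm3 and Ifi27l2a the leading genes were Gm49339 (0.915), Rab20 (0.911), Klf6 and Dirc2 (both 0.910), Pirb (0.908), F3 (0.906), Il13ra1 (0.906), Fndc3b (0.902), Pira2 (0.901) and Cstb (0.893), and 2 of the 10, Pirb and Gm49339, were on both lists. Slfn2 is the only 1 of the first 10 on the pathway list, and its highest level was 1802 CPM in monocyte-gated cells. Ptafr, the receptor for platelet-activating factor, was highest in neutrophil-gated cells, at 1788 CPM.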

How the data were processed

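Titles and genotype labels gave the groups, each of 1 library. The deposited matrices hold raw UMI counts without normalization. Cell Ranger, STAR 2.5.1b and mm10 stand in the submitters' processing notes, and software version 3.0.2 stands in the matrix per the file headers. Filters, steps and role of each tool beyond this are not given in the sources used here. The matrices hold only barcodes with at least 500 UMIs, and the libraries total 54773076 (deficient-labelled) and 23384895 (wild-type-labelled) UMIs.

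A cell's score for a class was the mean over its markers of its log-scaled share of the cell's UMIs, divided by that marker's 0.95 quantile and capped there. A cell took the class with the top score if at least 2 markers were detected, the score reached 0.2 and it was 1.25 times the next. These limits were set after seeing the data. They gated 4523 deficient-labelled and 1875 wild-type-labelled cells and left 1367 deficient-labelled and 735 wild-type-labelled cells ungated. Scrublet in scanpy 1.11.5 marked 1 deficient-labelled cell and 5 wild-type-labelled cells, so it removed almost no doublets. No doublets were removed in the values reported, and removal of 278 deficient-labelled and 54 wild-type-labelled cells by score rank was tried as an alternative.

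The UMIs of all cells in a class were added up per library and scaled to CPM. Levels carry exact Poisson 95% intervals. The log2 ratio divides the deficient CPM by the wild-type CPM and carries an exact conditional binomial 95% interval. Classes needed 100 cells in each library. Clusters used 2000 variable genes, 30 components, 15 neighbours and leidenalg 0.10.2 at resolution 1, without the members and the pathway genes. Scripts ran in Python 3.11.15 with matplotlib 3.10.9, igraph 0.11.9, scipy 1.17.1, scikit-learn 1.9.0, numpy 2.4.6 and pandas 2.3.3. The ratio, its interval and the size threshold were tried on simulated Poisson counts summed over a class. The interval assumes such counts, so the simulation does not cover UMIs that lie in few cells or differ between mice.

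The members, lists and groupings by role were chosen with earlier results of these data known. Values are written out for the 12 members with the most UMIs, up to 3 members with the largest and 3 with the smallest ratio in a class (at least 100 UMIs), up to 3 members with the most UMIs per role group, up to 6 pathway genes past 1.5-fold in monocyte-gated or macrophage-gated cells (taken by size of the log2 ratio), and the 10 non-member genes with at least 200 UMIs most like the sum on log2(CPM + 10). Other genes named, the pathway genes that make up small counts, the share of cells with at least 5 members, the division by Isg15 or AA467197 and the clusters shown were chosen after their values were seen.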

Additional observations from a re-analysis of the deposited data

Results flagged for a closer look

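For 8 members the counting interval of the log2 ratio, deficient-labelled over wild-type-labelled, lay above 0 in 1 compared cell class and below 0 in another. With 1 library per group the difference between classes was not tested. Macrophage-gated cells were the higher class for Oas1a (0.86, against -0.41 in monocyte-gated cells), Mx1 (1.16, against -1.26 in monocyte-gated cells), Bst2 (0.50, against -0.57 in monocyte-gated cells) and Ifitm3 (0.58, against -0.29 in cDC1-gated cells). In cDC2-gated cells the higher values were those of Herc6 (0.54, against -1.52 in cDC1-gated cells), Ifi47 (0.58, against -0.28 in monocyte-gated cells) and Phf11d (0.87, against -1.33 in monocyte-gated cells). Ifi27l2a was at 0.39 in cDC1-gated cells, against -0.26 in monocyte-gated cells. With classes taken from clusters the signs were kept for all 8, but most values were nearer 0. The macrophage ratio was then 0.23 for Oas1a (-0.23 in monocytes), 0.42 for Mx1 (-1.33 in monocytes), 0.52 for Bst2 (-0.38 in monocytes) and 0.36 for Ifitm3 (-0.23 in cDC1). The cDC2 ratio was 0.13 for Herc6 (-1.48 in cDC1), 0.45 for Ifi47 (-0.15 in monocytes) and 0.34 for Phf11d (-1.49 in monocytes), and the cDC1 ratio of Ifi27l2a was 0.25 (-0.21 in monocytes). None of these higher values was then past 1.5-fold. In all, 26 members had intervals off 0 only on the lower side and 1, Irf9, only on the higher side. The same counts over all genes were not made, so these numbers, and the 8 above, are not read as a result about the members.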

How the results depend on the processing

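No paired analysis was possible because each group has 1 library and the labels carry no replicate numbers. For the log2 ratio of the 37-member sum, a mitochondrial limit of 10% or none, removal of doublets by rank, and totals without mitochondrial, ribosomal protein and immunoglobulin genes moved no class by more than its counting interval. Classes from clusters made without the members gave -0.31 in monocytes, -0.31 in macrophages and -0.21 in cDC2. A mean over cells gave -0.55 in monocyte-gated and -0.14 in macrophage-gated cells, and thinning to 1000 UMIs gave -0.55 in monocyte-gated, -0.0927 in macrophage-gated and -0.0290 in neutrophil-gated cells. The median over measured members was -0.85 in monocyte-gated, -0.0104 in macrophage-gated and -0.76 in cDC1-gated cells. Without the most abundant member the ratio was -0.71 (monocyte), -0.34 (macrophage), -0.54 (cDC1) and -0.32 (cDC2). The next 3 alternatives were chosen after seeing the data. Without Ifitm3 and Ifi27l2a it was -0.95 (monocyte), -0.41 (macrophage), -0.66 (cDC1), -0.44 (cDC2) and -0.41 (neutrophil). Without the 10% of cells with the largest share of member UMIs it was -0.38 (monocyte), -0.0897 (cDC1), -0.10 (cDC2) and, reversed, 0.0930 in neutrophil-gated cells. In the cluster holding most of a gate it was -0.26 (monocyte), -0.66 (cDC1) and -0.28 (cDC2).

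The level as a mean over cells was 6470 CPM (deficient) and 9494 CPM (wild type) in monocyte-gated cells, 3119 CPM in deficient-labelled macrophage-gated cells, 1107 CPM (deficient) and 1475 CPM (wild type) in cDC1-gated cells, 2413 CPM in deficient-labelled cDC2-gated cells and 4347 CPM in deficient-labelled neutrophil-gated cells. At a size of 2-fold the members lower were 15 (monocyte), 4 (macrophage), 8 (cDC1), 1 (cDC2) and 2 (neutrophil), and those higher were 2 (macrophage) and 0 (cDC2). A minimum of 200 UMIs gave 5 lower in cDC1-gated and 2 lower in neutrophil-gated cells, and 1 higher in macrophage-gated and 0 higher in cDC2-gated cells. A minimum of 1 UMI in each library gave 24 lower in cDC1-gated and 14 lower in neutrophil-gated cells. Without the 10% of cells above, 1 was lower in cDC1-gated cells, 3 were lower and 3 higher in neutrophil-gated cells, and 1 was higher in macrophage-gated cells. Thinned to 500 UMIs, cells with at least 5 members made up 3.70% (deficient) and 12.97% (wild type) of monocyte-gated cells, 1.90% (deficient) and 2.72% (wild type) of macrophage-gated cells, 0.348% (deficient) and 0.647% (wild type) of cDC2-gated cells, 5.37% (deficient) and 8.83% (wild type) of neutrophil-gated cells, and 0.204% (deficient) and 0.730% (wild type) of cDC1-gated cells. With cluster-based classes, 116 of 139 single-gene ratios stayed within their intervals, 22 moved, and AA467197 in monocytes reversed to 0.10, cluster c4 being outside the clusters named monocyte there. Depth limits members under 50 UMIs in a class, and 1 library per group leaves the spread between mice unmeasured.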
